A study of Homo sapiens with 131 samples.

Results

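UHRF1 and 6 further genes that set, keep or remove DNA methylation were followed through the middle of S-phase in single HAP1 cells. The genes were chosen by name, as UHRF1, DNMT1, DNMT3A, DNMT3B, HELLS, CDCA7 and TET1, and UHRF1 itself was selected on its measured fall along S-phase in these same cells. The gene table held 60708 genes and the 7 chosen genes had 1 row each. All 7 were also among the 45404 genes for which spliced RNA, unspliced RNA and a DNA copy state were given. HAP1 is a human cell line from a chronic myeloid leukaemia that grows attached to the dish and carries nearly 1 set of chromosomes, so a locus has 1 copy before its replication and 2 copies after it. Unmodified HAP1 cells in mid-S phase were sorted singly, and scRR-seq, which holds chromatin on beads and leaves RNA in the lysate, gave a DNA and an RNA library from each cell. Of 63 mid-S cells in the labels, 56 had values, and the other 7 and the 5 G1 DNA libraries were not analysed here. The cells were untreated, had no contrast group and stem from 1 biological experiment, so a p-value given here measures the spread among these cells alone.

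DNA methylation is copied after each passage of the replication fork, when the parental strand is methylated and the new strand is not. UHRF1 binds such half-methylated DNA and ubiquitinates histone H3, which recruits and activates DNMT1, the maintenance methyltransferase. HELLS remodels nucleosomes and CDCA7 recruits and activates it, DNMT3A and DNMT3B place methyl groups on unmethylated DNA, and TET1 oxidises methylcytosine as a first step of its removal. UHRF1, HELLS and CDCA7 belong to the S-phase list that the Seurat package uses to assign cell cycle phase.

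The place of each cell in S-phase was given by its replication score, the percentage of 40-kb genome bins called 2-copy. The score ran from 39.7% to 67.2% with a median of 54.1% over the 56 cells, and 55 cells lay between 40% and 70%. Per cell, between 12045 and 15028 genes reached 1 TPM (a read level per transcript length, scaled to a fixed total in each cell), and unspliced counts summed to between 425181 and 1353931. By cell number, 2 sets of libraries stood apart. The 29 cells numbered up to 65 had 4.98% to 18.3% of their TPM in mitochondrial genes, and the 27 later cells had 2.57% to 5.55%. Median unspliced totals were 812254 in the first set and 568578 in the second, and unspliced counts are not scaled to these totals unless stated. The first set also had a lower median score (50.5% against 56.6%), so position in S-phase and library set are partly confounded, and for the 7 genes the courses along the score are also given within each set. Among the genes that mark the line, VIM was above 0 in 56 cells, BCR in 53 and ABL1 in 49. All 8 blood lineage genes examined had a median TPM of 0, and SPI1, MPO and HBG2 were at 0 in every cell. CD34 was above 0 in 27 cells (at most 1.49 TPM) and CD33 in 7 (at most 2.04 TPM). PTPRC, GATA1 and HBG1 were above 0 in 1 cell each, PTPRC with 58.65 TPM.

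UHRF1 (ENSG00000276043.5) lies at chr19:4903080-4962154 on the plus strand in hg38, and DNMT1 (ENSG00000130816.17) lies on the same chromosome at chr19:10133342-10231286 on the minus strand. HELLS (ENSG00000119969.15) and TET1 (ENSG00000138336.9) are both on chromosome 10, at chr10:94501434-94613905 and chr10:68560337-68694487, plus strand. CDCA7 (ENSG00000144354.14) and DNMT3A (ENSG00000119772.18) are both on chromosome 2, at chr2:173354820-173368997 on the plus strand and chr2:25227855-25342590 on the minus strand. DNMT3B (ENSG00000088305.18) is at chr20:32762385-32809356, plus strand. Each interval is the whole gene, with exons, introns and untranslated ends, as the files give it.

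The promoters of the 4 most abundant genes are shown because all of them hold letters of the kind bound by E2F factors, the regulators of genes used for DNA synthesis. The words searched were TTTCCCGC, TTTGGCGC, TTTGCCGC and TTTCGCGC, on both strands, in windows from 250 bases before to 50 bases after each transcription start in RefSeq (GRCh38.p14). A word was found in 1164 of 35116 such windows (3.31%), and in at least 1 window of 3.99% of 27305 genes. Of the Seurat S-phase genes other than UHRF1, HELLS and CDCA7, 30 had a window and 16 of them (53.3%) held a word. UHRF1 had words in 2 of its 3 windows, and DNMT1, HELLS and CDCA7 had them in their only window. The 6 windows of DNMT3A, the 3 of TET1 and the 1 of DNMT3B held none. Each sequence below reads 5′ to 3′ along the strand of the gene, from 120 bases before to 20 bases after the start, with the word in capitals. For UHRF1 the most upstream window is shown (chr19:4909381-4909520, plus strand), and the others are DNMT1 (chr19:10194934-10195073, minus strand), HELLS (chr10:94545668-94545807, plus strand) and CDCA7 (chr2:173354752-173354891, plus strand).
UHRF1: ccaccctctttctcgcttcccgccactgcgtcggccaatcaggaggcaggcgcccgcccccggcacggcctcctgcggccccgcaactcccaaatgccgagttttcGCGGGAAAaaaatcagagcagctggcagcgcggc
DNMT1: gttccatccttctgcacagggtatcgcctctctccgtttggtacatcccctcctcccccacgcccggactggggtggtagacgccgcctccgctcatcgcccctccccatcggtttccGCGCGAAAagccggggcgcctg
HELLS: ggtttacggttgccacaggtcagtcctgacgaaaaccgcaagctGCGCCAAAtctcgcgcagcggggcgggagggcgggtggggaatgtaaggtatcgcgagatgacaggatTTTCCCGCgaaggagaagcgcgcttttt
CDCA7: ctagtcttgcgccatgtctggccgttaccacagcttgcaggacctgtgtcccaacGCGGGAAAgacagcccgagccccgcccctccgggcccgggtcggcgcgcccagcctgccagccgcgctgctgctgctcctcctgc
In UHRF1 the word TTTCCCGC stood on the opposite strand 14 to 7 bases before the start, and in HELLS the same word ended at the last base before the start. HELLS held a second word, TTTGGCGC, on the opposite strand from 76 to 69 bases before the start. In CDCA7 the word TTTCCCGC lay on the opposite strand from 65 to 58 bases before the start. In DNMT1 the word TTTCGCGC, on the opposite strand, ran across the start itself. These are matches of letters only, and no measurement of factor binding was made in these cells.

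The maintenance genes were the abundant ones. DNMT1 had the highest level, with a median of 263 TPM (lowest 134, highest 557, n = 56 cells), above the median levels of 99.3% of all genes in the table. CDCA7 followed with a median of 178 TPM (45.4 to 341) and HELLS with 157 TPM (39.1 to 512). UHRF1 had a median of 106.4 TPM, from 26.8 TPM in the lowest cell to 233 TPM in the highest. These 4 genes were above 0 in all 56 cells. The genes that write new methylation or oxidise it were lower. TET1 had a median of 20.3 TPM (0 to 48.4) and was above 0 in 54 cells. DNMT3A had a median of 9.18 TPM (0 to 57.6) and was above 0 in 42 cells, and DNMT3B had a median of 2.12 TPM (0 to 29.8) and was above 0 in 31 cells.

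Neighbours in this order were separated to different degrees. DNMT1 exceeded CDCA7 in 48 of 56 cells and UHRF1 in 55. CDCA7 exceeded HELLS in only 27 cells and was lower in 29, so the order of these 2 was not resolved. HELLS exceeded UHRF1 in 43 cells. UHRF1 exceeded TET1 in every cell, and this step separated the 4 abundant genes from the other 3. TET1 exceeded DNMT3A in 38 cells, and DNMT3A exceeded DNMT3B in 33 with 8 cells at the same value. The spread across cells relative to the mean was least for DNMT1 (coefficient of variation 32.5%) and CDCA7 (37.6%), intermediate for UHRF1 (45.2%), HELLS (51.8%) and TET1 (58.1%), and largest for DNMT3A (111.6%) and DNMT3B (126%). The 2 library sets differed in level for several of these genes. Medians in the first and second set were 126 and 86.3 TPM for UHRF1, 299 and 250 TPM for DNMT1, 194 and 128 TPM for HELLS and 197 and 153 TPM for CDCA7. TET1 went the other way, with 15.3 and 23.3 TPM, as did DNMT3A with 4.48 and 9.98 TPM and DNMT3B with 0 and 3.65 TPM.

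**Figure D1:**
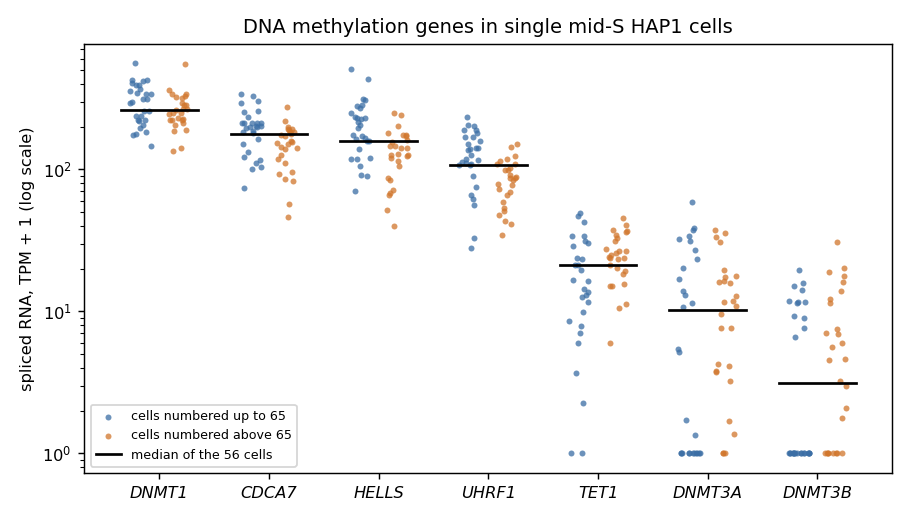
Spliced RNA of the 7 genes in each of the 56 cells, as TPM + 1 on a log axis, with the cells of the first library set (numbered up to 65) and the second set in separate colours and the median over all cells as a bar. DNMT1, CDCA7, HELLS and UHRF1 lie above TET1, DNMT3A and DNMT3B, and cells at 0 TPM sit at the bottom of the last 3 columns.

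Close relatives of the 7 genes were also looked up. UHRF2, the paralogue of UHRF1, had a median of 32.3 TPM (above 0 in 51 cells) and CDCA7L, the paralogue of CDCA7, had 85.7 TPM (above 0 in 55 cells). DNMT3L, a catalytically inactive partner of DNMT3A and DNMT3B, was at 0 in all 56 cells. Of the pseudogene rows named after these genes, DNMT3AP1 was at 0 in all cells and TET1P1 was above 0 in 7 cells with at most 2.15 TPM.

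UHRF1 was lower in cells further into S-phase. Among the 19 cells scored under 50%, UHRF1 had a median of 140 TPM (58.2 to 233). The 24 cells from 50% to 60% had a median of 102.9 TPM (31.9 to 168), and the 13 cells over 60% had a median of 60.9 TPM (26.8 to 112.95). The highest cell had a score of 46.0% and the lowest a score of 64.1%, while the ranges of neighbouring bands overlapped. In the first set the medians of the 3 bands were 169, 116 and 60.9 TPM, with 3 cells in the last, and in the second set they were 99.0, 86.6 and 57.6 TPM. In both sets each later band had the lower median, and the first set started from the higher level.

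Over all 56 cells the Spearman rho of UHRF1 TPM with the score was -0.57, and Pearson's r of log10(TPM + 1) with the score was -0.61. Leaving out the 2 cells with the scores most distant from the median, rho was -0.52. It was -0.63 in the 29 cells of the first set, -0.33 in the 27 of the second and -0.50 with the mean of each set subtracted. These cells share an experiment and, within a set, their library preparation. The mitochondrial share of TPM, which differs between the sets, had a rho with UHRF1 of 0.35 over all cells but of 0.00 (-0.0030) in the first set and -0.01 (-0.014) in the second. The number of genes detected had a rho with UHRF1 of -0.07 and 0.02 in the 2 sets. A smooth additive model fitted to log10(TPM + 1), with the score as predictor and Benjamini-Hochberg adjustment over all genes tested, called 7 of 17132 genes (0.0409%) and 1 of the 7 chosen genes, UHRF1. Because UHRF1 was selected on this contrast, nothing is read from its call. When the model also held a term for the library set, 2 genes were called and UHRF1 was not among them.

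The other 6 genes had rho values closer to 0, and the difference from UHRF1, which was selected on its course, was not tested. DNMT1, the enzyme that UHRF1 recruits, had medians of 295, 257 and 261 TPM in the 3 bands and a rho of -0.06 with the score (-0.11 and 0.02 in the first and second set). HELLS had 158, 145 and 172 TPM and a rho of -0.12 (0.07 and -0.05 by set), and CDCA7 had 184, 193 and 153 TPM and a rho of -0.13 (0.10 and -0.10 by set). For both remodelling genes the small negative value over all cells was not present in the first set, and it was -0.01 for HELLS and 0.01 for CDCA7 with the set mean subtracted. TET1 had 22.8, 19.2 and 22.5 TPM and a rho of 0.08 (-0.02 and -0.03 by set). DNMT3A had a rho of 0.11 (-0.02 and 0.14 by set) and DNMT3B one of 0.21 (0.21 and 0.09 by set). DNMT3B was above 0 in 9 of 19 cells under 50%, in 10 of 24 cells from 50% to 60% and in 12 of 13 cells over 60%. Its medians in the 3 bands were 0, 0 and 10.6 TPM in the first set, with 3 cells in the last band, and 4.79, 3.53 and 3.63 TPM in the second set, with 10 cells in the last. DNMT3A was above 0 in 12, 17 and 13 cells of these bands. Among all genes tested, the middle 50% had a rho between -0.10 and 0.11, so DNMT1 and TET1 lay inside this range, DNMT3A at its upper edge, HELLS and CDCA7 just below it and DNMT3B above it.

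**Figure D2:**
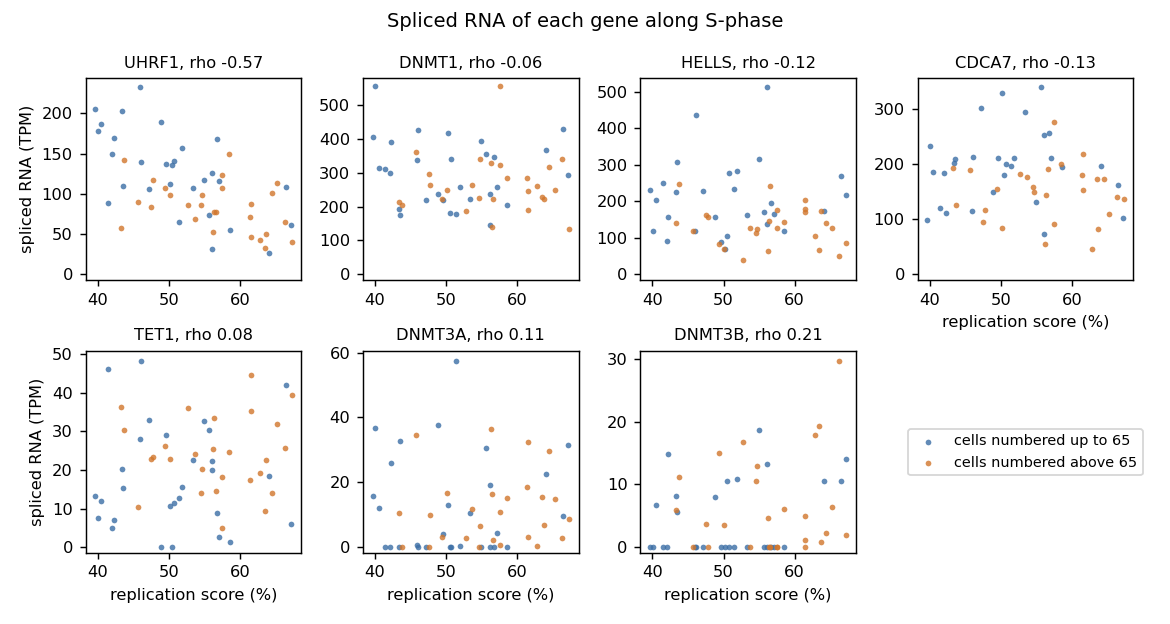
Spliced RNA (TPM, linear axis) of each gene against the replication score (%), 1 point per cell, in the colours of the 2 library sets, with the Spearman rho over 56 cells above each panel. UHRF1 runs from the upper left to the lower right (rho -0.57), and the other 6 panels have rho values between -0.13 and 0.21.

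The genes of the group had low correlations with each other over all cells. With the mean of the library set subtracted, the 21 pairs of genes had Spearman rho values between -0.23 and 0.25. The highest were UHRF1 with DNMT1 (0.25, with 0.27 and 0.24 in the 2 sets) and HELLS with TET1 (0.25, with 0.47 and -0.07). The lowest was DNMT3B with CDCA7 (-0.23). HELLS and CDCA7, which act as a complex, had a rho of 0.05, and UHRF1 with HELLS had 0.02. Within single sets some values were larger and opposite in sign, as for DNMT1 with TET1 (0.16 in the first set and -0.58 in the second) and DNMT3B with HELLS (0.34 and -0.53).

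The genes whose spliced RNA was most like that of UHRF1 were ranked over 12486 genes with at least 1 TPM in at least 50% of cells, after the set mean was subtracted. DVL1, a Wnt signalling protein, came first with a rho of 0.53 (n = 56 cells). MCM3 (0.52) and MCM7 (0.47), subunits of the MCM2-7 replicative helicase, were also among the first 10. MCM3 had a median of 240 TPM and its own rho with the score was -0.62, below that of UHRF1, whereas DVL1 had -0.22 and MCM7 -0.30. Also among the first 10 were SOAT1 (cholesterol esterification), ARID4B, AKAP10, PSMB8 (an immunoproteasome subunit), ZSCAN25 and RP11-746M1.1, with rho values from 0.49 down to 0.45. PIF1, a DNA helicase, was the most opposite gene with a rho of -0.57 (-0.61 and -0.51 in the 2 sets), and its own rho with the score was 0.34. FAHD2B, ATXN3 (a deubiquitinase), GABRD and RP11-274B21.14 followed with -0.50 to -0.42. For DNMT1 the nearest genes were FARP1 (0.51), FAF1 (0.50) and S100A11 (0.49), for HELLS CMTM4 (0.50), SLFNL1-AS1 (0.50) and LINC01881 (0.48), and for CDCA7 OSBPL2 (0.47), SDAD1 (0.47) and FBXO34 (0.46). Near TET1 were RP11-119F7.5 (0.57) and PLEKHB2 (0.50), near DNMT3A were BTBD6 (0.55), ORMDL3 (0.51) and ERBB3 (0.48), and near DNMT3B were EML2 (0.47) and CTBP1 (0.46). These are the extremes of a ranking over all 12486 genes and are given as a description.

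Other genes of the pathway were taken from 7 lists with 58 genes, chosen by function. Of these, 49 passed the filter of at least 1 TPM in at least 20% of cells, none was called along the score (against 0.0409% of all genes), and their median rho was 0.04 beside 0.0039 for all 17132 genes tested. Of the 49, 23 had a negative and 26 a positive rho. Among partners of maintenance methylation, the lowest rho was that of UHRF2 (-0.28) and the highest that of PCLAF, a PCNA-binding protein (0.16). Among oxidation and base excision genes, TDG, the glycosylase that removes oxidised methylcytosine, had the lowest rho of all 58 genes (-0.34), and GADD45A had 0.24. In the supply of methyl donors, MTR (methionine synthase) had -0.28 and AHCYL1 had 0.23. The methyl-CpG readers ran from MBD1 (-0.29) to ZBTB4 (0.13), the H3K9 methylation and heterochromatin genes from SETDB1 (-0.26) to SUV39H2 (0.26), and the H3K36 methyltransferases from NSD2 (-0.24) to NSD3 (0.25). Of 10 germline genes that DNA methylation is known to keep silent, 9 had a median TPM of 0. Low medians were common, as 80.8% of all genes had one below the 2.12 TPM of DNMT3B, so nothing is read from this count. Among the 3 of them that passed the filter, SYCP3, with a median of 1.5 TPM, had the lowest rho (-0.19) and DAZL, above 0 in 22 cells with up to 308 TPM, the highest (0.27). The values of these lists and of the Seurat list are over all cells and not within sets.

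The Seurat S-phase list leaned to lower values late in the score. Of its 40 genes other than UHRF1, HELLS and CDCA7, 31 had a negative rho and 9 a positive one, with a median of -0.12, and none was called. MCM6, another helicase subunit, had the lowest value of these (-0.45). UHRF1, with -0.57, had been selected on this value, so its place in the list is not read. Over all cells the values of HELLS and CDCA7 were close to the median of the list. With the set mean subtracted they were -0.01 and 0.01, and no median of the list was taken on that basis.

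**Figure D3:**
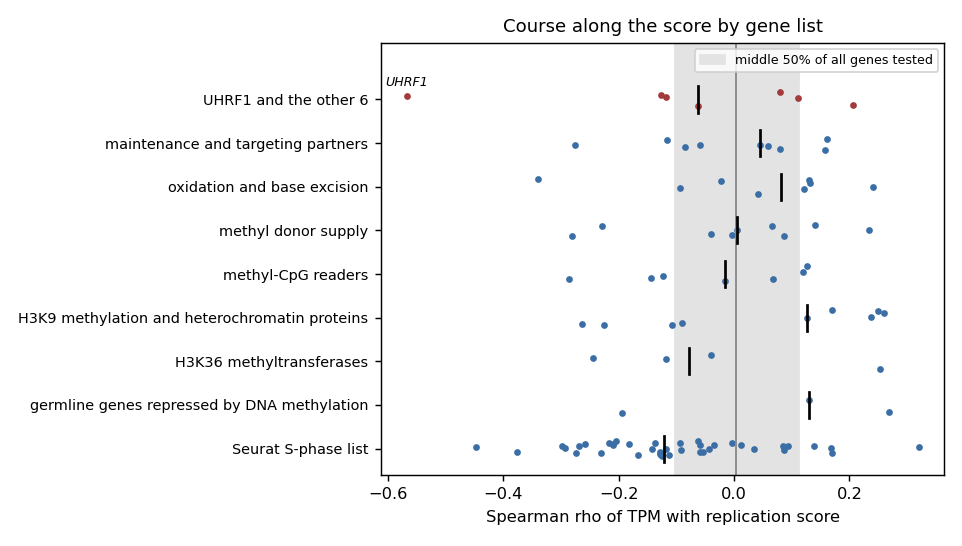
Spearman rho of TPM with the replication score for the 7 genes (red) and for the genes tested from each pathway list and the Seurat S-phase list (blue, without the 7 genes), with the median of each row as a bar and the middle 50% of all 17132 genes tested as a grey band around their median line. UHRF1 stands at -0.57, the value it was selected on, so its place beside the lists is not read.

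Unspliced RNA, the reads in a gene body that are not in its exons, did not follow the spliced RNA of UHRF1. Its unspliced count was low, with a median of 2.67 reads (0 to 102.7, above 0 in 48 cells), and had a rho of -0.07 with the score (-0.03 and -0.07 by set) and -0.11 with the spliced level. For DNMT1 the median was 22.2 reads (0.20 to 212) and the rho with the score -0.16 (-0.23 and -0.09 by set). TET1 had a median of 37.1 reads (0.70 to 386) and a rho of -0.17 (-0.13 and 0.07 by set), and its medians in the first and second set were 69.1 and 21.4 reads. DNMT3A (median 3.80 reads), DNMT3B (0.30 reads) and CDCA7 (0 reads, above 0 in 19 cells) were near the lower end of the counts. For DNMT3A the rho was 0.21 over all cells, with 0.01 in the first set and 0.49 in the second. For CDCA7 it was 0.08, with 0.38 and -0.18 by set, and for DNMT3B -0.14, with -0.19 and 0.04. HELLS had -0.12, with -0.06 and 0.25 by set. The additive model of unspliced counts called 2 of 16070 genes (0.0124%) and none of the 7 chosen genes.

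HELLS had the highest unspliced level of the 7 genes. Its median was 552 reads per cell (69.3 to 1853), more than 99.8% of all genes, and 4.91 reads per kb of gene, more than 99.2%. Per kb, the other 6 genes lay between 0 and 0.28 reads. In HELLS the unspliced count went with the spliced level, with a rho of 0.72 over all cells (0.78 and 0.42 in the 2 sets), above 99.3% of 5572 genes detected in both kinds of RNA, whose median was 0.15. The other 6 had values between -0.21 and 0.17 over all cells. Within sets some were higher, with 0.43 for DNMT3A in the second set, close to HELLS there, and 0.48 for DNMT3B in the first. HELLS shares its locus with 2 other genes of the same strand. TBC1D12 (chr10:94402541-94536332), which overlaps its first 34.9 kb, had a median unspliced count of 0. RP11-119K6.6, a non-coding gene that lies wholly inside HELLS (chr10:94577439-94611238), was above 0 in spliced RNA in only 11 cells but had a median unspliced count of 794 (209 to 2228). That count had a rho of 0.89 with the unspliced and 0.82 with the spliced RNA of HELLS. Reads of these overlapping genes cannot be told apart in the counts, so the unspliced value of HELLS is uncertain. The HELLS interval of the files also begins upstream of the RefSeq start shown above, as do those of UHRF1, DNMT1 and CDCA7.

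The other overlapping genes had low median levels of spliced RNA. S1PR2, on the same strand as DNMT1 and overlapping it over 9.85 kb, had a median of 1.14 TPM (above 0 in 40 cells). Its median unspliced count was 0. AC092573.2, antisense to CDCA7 over 1.39 kb, was above 0 in 3 cells. MIR4747 in UHRF1, MIR4322 in DNMT1 and MIR1301 in DNMT3A were at 0 in every cell. In TET1, COX20P1 was above 0 in 5 cells and RPS3AP37 in 1.

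Of the 7 loci, 6 had been replicated in nearly all mid-S cells. Within the 55 cells scored 40% to 70%, UHRF1 was 2-copy in 54 of 54 cells with a call (95% exact Clopper-Pearson interval 93.4% to 100%), CDCA7 in 55 of 55 (93.5% to 100%) and DNMT3A in 51 of 51 (93.0% to 100%). DNMT1 and DNMT3B were each 2-copy in 54 of 55 cells (98.2%, interval 90.3% to 99.95%). The 1 cell with an unreplicated DNMT1 had a score of 61.4%, and the 1 with an unreplicated DNMT3B a score of 42.3%. TET1 was 2-copy in 48 of 52 cells (92.3%, 81.5% to 97.9%). UHRF1 RNA thus varied from 26.8 to 233 TPM among cells whose UHRF1 locus, where called, always had 2 copies. For all 45404 genes the median share of 2-copy cells was 81.8%. High shares were common, as 38.6% of these genes had a higher share than TET1 and 16.1% a higher share than DNMT1 and DNMT3B.

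HELLS was the exception. It was 2-copy in 19 of 51 cells (37.3%, interval 24.1% to 51.9%), a lower share than that of 74.4% of all genes. Its 32 unreplicated cells in this window and the 1 cell below it had scores from 39.7% to 67.2% with a median of 50.7%, and its 19 replicated cells had scores from 42.0% to 66.5% with a median of 54.96%, so the 2 groups of cells overlapped over nearly the whole range. The 4 bins under HELLS were 2-copy in 43.6%, 41.8%, 34.5% and 32.7% of cells from its start to its end. Beyond the gene the share fell to 10.9% at 0.46 Mb from its centre, and on the other side it rose to 94.5% within 1.5 Mb. HELLS thus lay on a slope between an early and a late replicating region.

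TET1, on the same chromosome, showed a smaller gradient inside the gene, with 77.8%, 87.3%, 92.7% and 94.5% over its 4 bins, the lowest at its promoter end. DNMT1 lay beside a late region, with 20.0% at 1.12 Mb before its centre in genome coordinates, but its own 3 bins had 96.4% or more. Around UHRF1, DNMT3A, DNMT3B and CDCA7 the lowest bin within 1.5 Mb was 2-copy in 90.6% of cells.

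**Figure D4:**
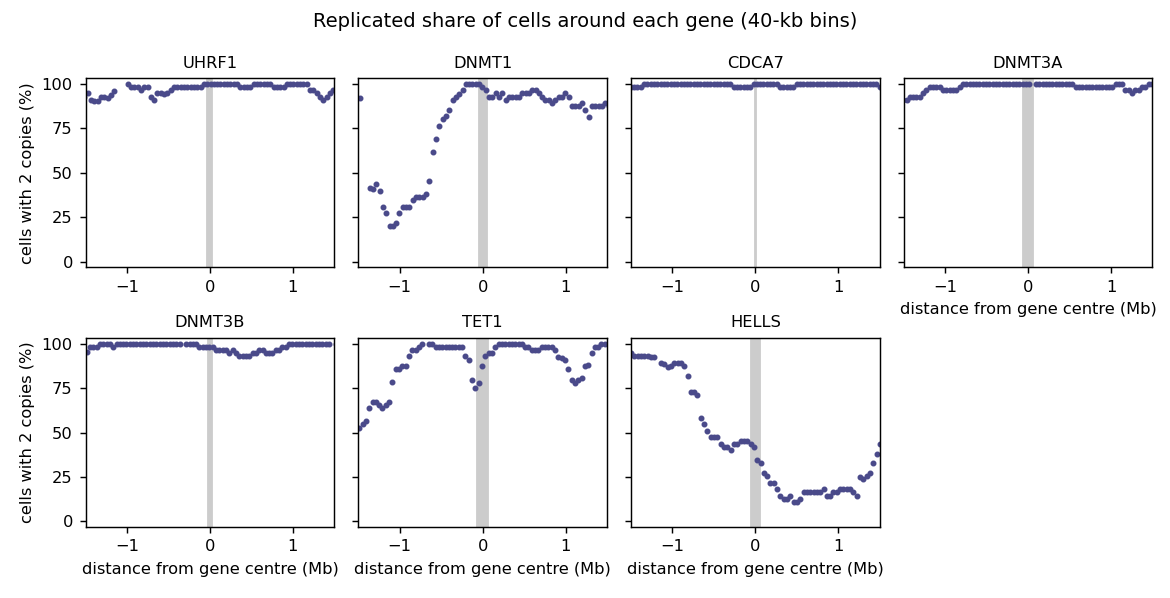
Percentage of the 55 mid-S cells scored 40% to 70% in which each 40-kb bin was 2-copy (of the cells with a call), against distance from the gene centre in Mb along the genome, with the gene as a grey band. HELLS sits on a slope that falls to 10.9%, and the other 6 genes lie in or beside regions replicated in most cells.

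Whether a replicated locus carries more RNA could be asked for HELLS alone, since a gene had to be in neither state in more than 80% of cells. In the 19 cells with 2 copies of HELLS the spliced level had a median of 162 TPM (50.5 to 512), and in the 32 cells with 1 copy it had a median of 144 TPM (39.1 to 435). The ranges overlapped almost entirely. The difference of mean log2(TPM + 1) was 0.27 ± 0.21 (SE), with an interval of 2 SE from -0.15 to 0.68, and it did not pass the two-sided Wilcoxon rank-sum test (p = 0.231, adjusted p = 0.793 over 2455 genes) or a two-sided permutation test of ranks (p = 0.235, 100000 resamples). In unspliced RNA the medians were 566 reads (202 to 1853) with 2 copies and 516 reads (69.3 to 1358) with 1 copy, a log2 difference of 0.29 ± 0.22 (SE; 2 SE from -0.15 to 0.73), which did not pass either (Wilcoxon p = 0.297, adjusted p = 0.892; permutation test p = 0.300). As background, p was under 0.05 for 210 of 2455 genes in spliced RNA (8.55%) and 212 of 3159 in unspliced RNA (6.71%), and for none of the 7 chosen genes. In neither table did a gene pass after adjustment by the Wilcoxon test, while edgeR called 177 in unspliced RNA.

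The direction of the medians was not the same in the 2 library sets. In the first set the spliced medians were 172 TPM with 2 copies (11 cells) and 194 TPM with 1 copy (17 cells), and in the second set 150 TPM (8 cells) and 126 TPM (15 cells). The difference of mean log2(TPM + 1) stayed positive with the mean of each set subtracted, at 0.24 (Wilcoxon p = 0.271). When only the 39 called cells scored 45% to 65% were kept, the spliced medians were 165 TPM (13 cells) and 126 TPM (26 cells), with a log2 difference of 0.51 and a Wilcoxon p of 0.0413, and the adjusted p was 0.556. In the same cells the unspliced difference was 0.57 with a Wilcoxon p of 0.0547. The intervals above include both no difference and an increase by more than the value measured, so they do not show that copy state leaves HELLS RNA unaltered.

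**Figure D5:**
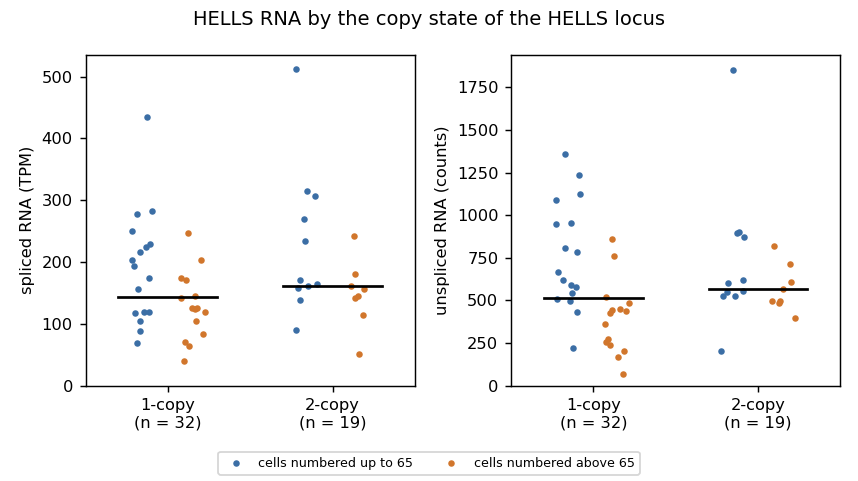
Spliced RNA (TPM, left) and unspliced RNA (counts, right) of HELLS in the cells with 1 copy (n = 32) and 2 copies (n = 19) of the HELLS locus, with medians as bars and the 2 library sets in separate colours. The ranges overlap almost entirely, with spliced medians of 144 and 162 TPM.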

How the data were processed

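DNA and RNA libraries of the same HAP1 mid-S cell were joined by the cell number in the labels. DNA reads were mapped by the authors to hg38 with BWA (0.7.17-r1188 in the submitters' processing notes), who called 40-kb bins as 1-copy or 2-copy against G1 cells. The deposited copy state is coded by a score of 1 (2-copy), -1 (1-copy) or 0 (no call) per bin and per gene, genes that span several bins being averaged and recoded by the authors. Chromosomes 1, 15 and X hold no copy state. Spliced RNA is given as TPM that the authors made from exon reads (ramdaq, featureCounts, GENCODE v38) after reduction to a common library size. The unspliced table holds estimated counts (expected counts, fractional, not scaled to a common total), made by the authors as gene-body less exon reads with negative values set to 0, although the deposited table is titled TPM. The sources used here do not say whether reads were counted by strand. RNA was taken from the lysate, so nuclear RNA may be under-represented. Spliced and gene TPM tables differed in 0 values.

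The replication score was the percentage of called bins that were 2-copy. The additive model (mgcv 1.9.3, R 4.3.3) was fitted to log10(value + 1) for genes with TPM of at least 1 (unspliced: above 0) in at least 20% of cells. A pseudocount of 1 makes differences of low genes smaller. The copy-state test was a two-sided Wilcoxon rank-sum test in cells scored 40 to 70%, for genes above 0 in over 50% of cells, with a call in at least 50% and neither state in over 80% of the called cells. Both were adjusted over all genes tested by Benjamini-Hochberg. edgeR 4.0.16 (quasi-likelihood, counts rounded to whole numbers) was an alternative for unspliced RNA. Correlations used scipy 1.17.1 and are descriptions without a test. The tests were tested on simulated data. The library sets were seen in the values; the labels name no batch. Binomial intervals cover counting of cells only.

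The chosen genes, the pathway lists and the settings were picked with earlier results of these data known. Named besides the 7 genes are the highest and lowest rho of each list (or calls), the 10 most like and 5 most opposite to UHRF1, the 3 most like each other gene, overlapping genes and named copies of a chosen gene. Some genes that this rule names are not reported here. Alternatives tried were the library set as a term or removed, other filters, cells, pseudocount and scaling, a linear term, and edgeR.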

Additional observations from a re-analysis of the deposited data

How the results depend on the processing

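No paired analysis was possible because the libraries that share a number are the DNA and RNA of 1 cell and were joined, not compared. Of 93 alternative values, 80 stayed within the limits set for their kind, and no called value changed sign. These limits were a fixed ratio for counts of genes, the SD over cells for levels, and an interval for rho and for copy shares. For the copy-state difference of HELLS they were its direction and side of the threshold. A rho could change sign within its interval, as it did for HELLS and CDCA7 in the first set. For spliced RNA along the score, 7 genes were called, against 2 with the library set as a term, 39 with no filter and 4 with a linear term. With the library set as a term UHRF1 was not called. As UHRF1 was selected on this contrast, nothing is read from its calls in the other fits. For unspliced RNA along the score, 2 genes were called, against 14 leaving out the 2 cells with the scores most distant from the median, 17 with no filter, 0 among genes above 0 in over 50% of cells, 0 with a linear term, 1 with counts scaled to the total of each cell and 679 with edgeR. For unspliced RNA by copy state, 212 genes had p under 0.05, against 128 among genes above 0 in over 80% of cells, of which fewer were tested, and 554 with edgeR. The spliced log2 difference of HELLS by copy state was 0.51 in place of 0.27 in cells scored 45 to 65%, with p under 0.05. Over the other alternatives of HELLS its Wilcoxon p lay between 0.216 and 0.271 in spliced RNA. In unspliced RNA the Wilcoxon p of HELLS was 0.297. It was 0.0547 in cells scored 45 to 65% and 0.126 with counts scaled to the total of each cell. With edgeR the p of HELLS in unspliced RNA was 0.456. The rho of UHRF1 with the score went from -0.57 to -0.33 in the second library set. Apart from the filters, the cause of these changes was not tested. The precision of every value is limited by 56 cells of 1 experiment, by counts near 0 for the unspliced RNA of UHRF1, DNMT3A, DNMT3B and CDCA7, and by the 4 cells without a copy call at HELLS.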
